A study of Sus scrofa with 8 samples.

Results

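The genes of the pancreatic duct epithelium examined here were the keratins KRT8, KRT18 and KRT19, the transcription factor SOX9, the chloride channel CFTR, the secreted protein osteopontin (SPP1), the mucin MUC1, the water channel AQP1 and the carbonic anhydrase CA2. They were read by every probe set whose annotation gave one of these symbols and no other. A probe set is a set of short DNA probes for one transcript, and its hybridisation signal is given as a single intensity. Of the 9 genes, 8 were annotated, of 6545 symbols with a probe set tested, and they had 11 of the 23999 probe sets other than controls. CA2 had no probe set under its symbol and has no value here. KRT8, MUC1 and AQP1 had 2 probe sets each, called probe set 1 (the brighter) and probe set 2, and the other 5 genes had 1 each.

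Islets were isolated from 4 male Duroc/Large white cross pigs aged 7 days and from 4 aged 3 days, and each pig gave 1 array. At both ages the pancreas had been digested with collagenase and the islets kept in culture over 7 days with glucose, isobutylmethylxanthine and nicotinamide in the medium, so the arrays describe cultured cell clusters and not fresh pancreas. The methods name no sorting step, so each array mixes the RNA of all cell types in the clusters. The comparison asks how the duct component of the preparations differed between the ages.

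The pancreatic ducts carry acinar enzymes to the gut in a fluid that the duct cells make rich in bicarbonate. CFTR releases chloride and bicarbonate at the apical membrane, AQP1 lets water follow, and carbonic anhydrase supplies the bicarbonate. KRT8, KRT18 and KRT19 build the intermediate filaments of simple epithelium. KRT19 is largely restricted to ducts in the adult pancreas, whereas KRT8 and KRT18 are also made by acinar and, at lower levels, endocrine cells. In the embryonic pancreas SOX9 maintains the progenitors from which ducts and endocrine cells derive.

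The label check came first because it sets every sign below. All 108 probe sets for which the supplementary tables give a direction had the opposite direction by the deposited labels, 87 tabulated as higher at 7 days and 21 as lower. None of the 108 is a duct probe set. The array files and their labels do not settle which labels are exchanged, so the arrays are called 7-day-old and 3-day-old by their deposited label alone, and each direction given here is opposite to the one that the study's age assignment would give. Array medians lay between 171.6 and 178.5, and correlations of log2 intensities across probe sets were 0.942 to 0.957 between arrays of the same label and 0.930 to 0.940 between arrays of different labels. The islet hormones INS, GCG, SST and PPY lay at the 99.6th percentile (rounded) or higher in every array. The number of arrays limits the precision.

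All 11 duct probe sets had a log2 difference (7-day-old minus 3-day-old) below 0, as had 50.1% of all probe sets tested, and 4 of them passed the test (two-sided moderated test of limma, p-values adjusted by Benjamini-Hochberg over the 21574 probe sets that reached the 20th percentile of intensity in at least 1 array, threshold 0.05). These 4 read KRT19, KRT8 (probe set 2), MUC1 (probe set 1) and AQP1 (probe set 1). None was higher. Without replicate 1 or 2 of the 7-day-old arrays, or without replicate 3 of the 3-day-old arrays, 1 of the 11 passed, and without any other single array 2 did. Over the whole array 5.47% of probe sets were called lower and 5.21% higher. The median log2 difference of the duct probe sets was -0.61 and that of all probe sets tested was close to 0. In 7 of the 11 every one of the 7-day-old arrays lay below every one of the 3-day-old arrays, which was so for 10.3% of all probe sets tested. The 11 probe sets share 8 genes and the same 8 arrays and are not independent of each other. Lower intensity in a whole preparation can come from fewer cells of a type or from less RNA per cell, which cannot be told apart here.

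**Figure D1:**
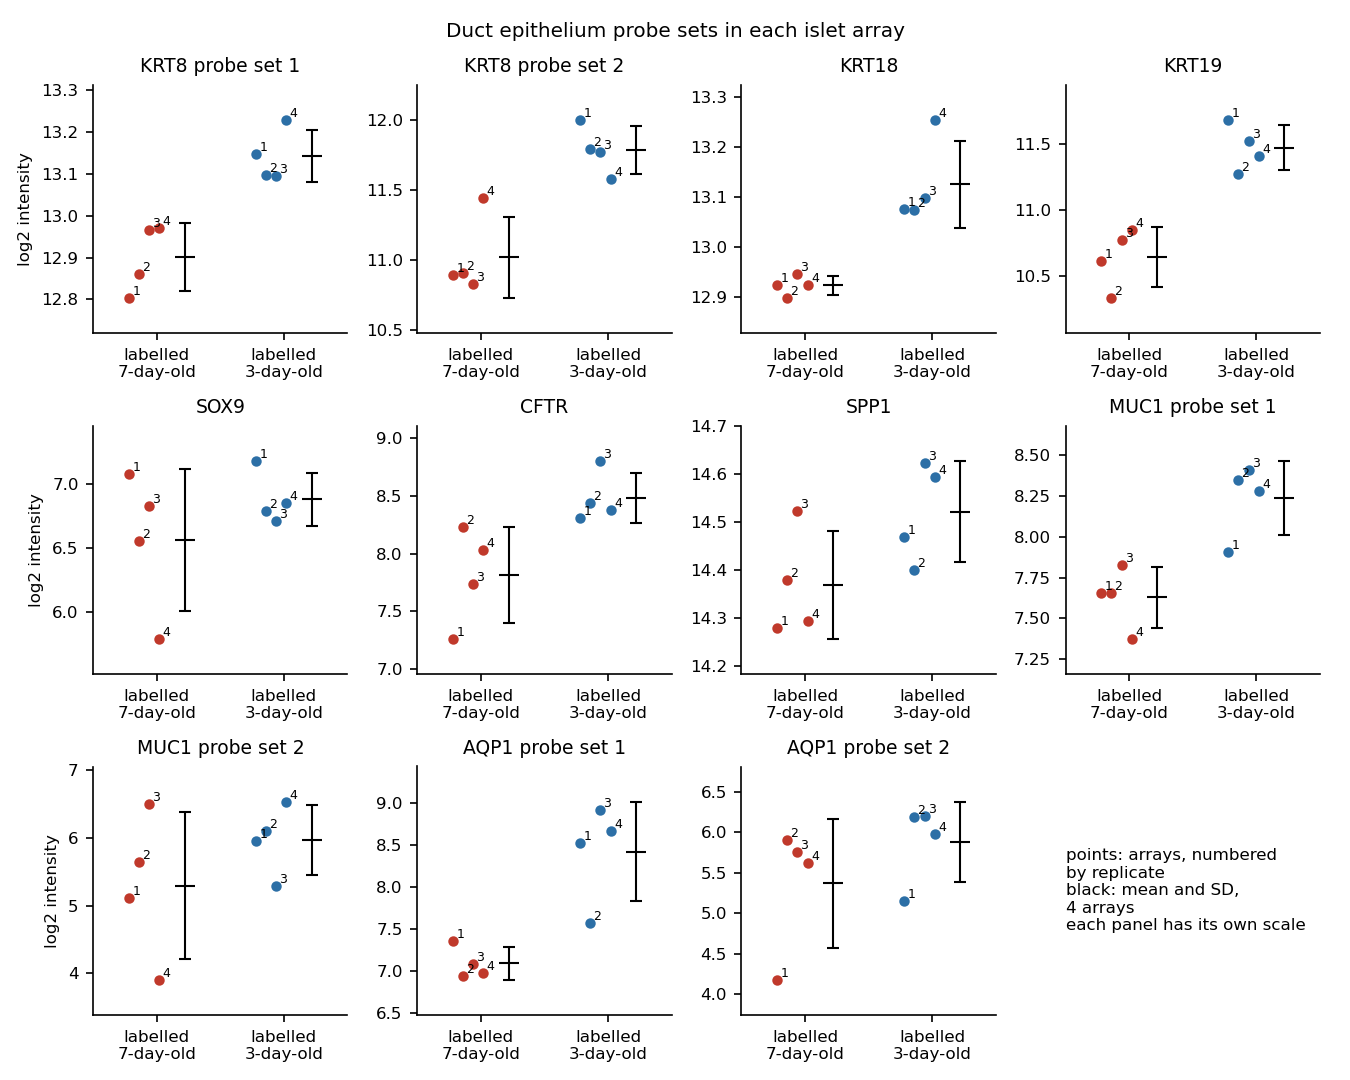
Log2 intensity (vertical axis) of each of the 11 duct probe sets in each islet array, by deposited age label, with points numbered by replicate and the mean and SD of 4 arrays in black. Each panel has its own scale. The arrays of the labels do not overlap in 7 panels (both KRT8 probe sets, KRT18, KRT19, CFTR, MUC1 probe set 1 and AQP1 probe set 1).

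KRT19, the keratin that marks duct cells, had intensities of 1569.8, 1297, 1749.5 and 1848 in the 7-day-old arrays, against 3282, 2480.2, 2947 and 2716 in the 3-day-old arrays. The highest of the 7-day-old arrays lay below the lowest of the 3-day-old arrays. The mean was 1616 ± 242 in the 7-day-old arrays and 2856 ± 342 in the 3-day-old arrays (SD, n = 4 each), and the log2 difference was -0.83 (standard error, SE, 0.143, 95% interval -1.16 to -0.50, limma adjusted p = 0.0148), or 0.564 times the level in the 3-day-old arrays. KRT19 was the one duct probe set that passed whichever single array was left out, with adjusted p of 0.0252 to 0.0467.

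KRT18, the type I keratin that pairs with KRT8, had nearly equal intensities in the 7-day-old arrays, at 7773, 7634, 7885 and 7774. In the 3-day-old arrays they were 8631, 8618, 8769.6 and 9774. The groups did not overlap, yet the difference was small, -0.20 on the log2 scale (95% interval -0.38 to -0.02), and it did not pass limma's test (adjusted p = 0.14). Probe set 1 of KRT8, its type II partner, behaved alike in size. It had 7154, 7441, 7998 and 8032 in the 7-day-old arrays and 9073, 8761, 8754 and 9599.7 in the 3-day-old arrays, again without overlap. The log2 difference was -0.24 (95% interval -0.43 to -0.05, limma adjusted p = 0.101). Both probe sets lay above 98% of all probe sets of every array. With the methods' t-test in place of limma's both passed, at adjusted p = 0.0443 for KRT18 and 0.0411 for KRT8 probe set 1.

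Probe set 2 of KRT8 differed more. It had 1905, 1924, 1815 and 2787 in the 7-day-old arrays, with replicate 4 well above the other 3, and 4099.8, 3558, 3498 and 3064 in the 3-day-old arrays. The groups did not overlap. The log2 difference was -0.77 (SE 0.163, limma adjusted p = 0.0275). The call did not survive the loss of any of 6 arrays (adjusted p = 0.0603 to 0.0758) and held without replicate 4 of the 7-day-old (0.0158) or of the 3-day-old arrays (0.0365).

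After these values were seen, the change in KRT19 was set against the other keratins within each array. The size of such a difference depends on the probes, and only its change between the labels is read. KRT19 minus KRT18 lay between -2.56 and -2.07 on the log2 scale in the 7-day-old arrays and between -1.85 and -1.39 in the 3-day-old arrays, a change of -0.62. KRT19 minus KRT8 probe set 1 changed by -0.59, also without overlap. Both had an exact permutation p of 0.0286 (two-sided, 4 arrays against 4, the smallest p this design allows). The adjusted p was 0.1 over the 7 pairs of probe sets compared in this way, so neither passed the correction. Even this smallest p passes only if most of the 7 pairs reach it, so the correction could hardly be met and nothing is concluded from it. KRT19 minus KRT8 probe set 2 changed by -0.06 (exact permutation p = 0.714). KRT8 probe set 2 minus probe set 1 changed by -0.53, with overlap between the labels (exact permutation p = 0.0571, adjusted p = 0.133), and did not pass either.

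**Figure D2:**
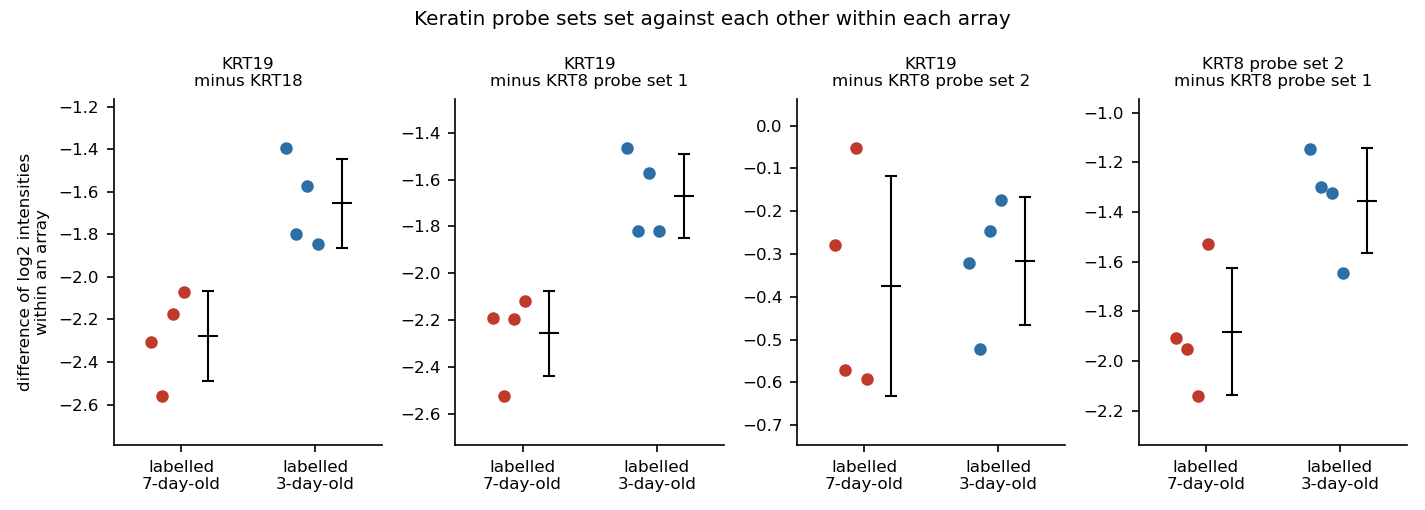
Difference of log2 intensities between 2 keratin probe sets within an array (vertical axis), by deposited age label, 1 point per array, with the mean and SD of 4 arrays in black. The labels do not overlap for KRT19 minus KRT18 and KRT19 minus KRT8 probe set 1, and they overlap for KRT19 minus KRT8 probe set 2.

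Other keratins could be followed only in part. Of 15 listed, 3 were tested, KRT1, KRT2 and KRT10, which are keratins of the epidermis, and none passed. The duct keratin KRT7 had no probe set under its symbol. Of 4 tested genes of the desmosome, the junction to which keratin filaments attach, or of keratin binding (DSP, JUP, PPL and TRADD), none passed. Desmoplakin (DSP), which anchors the filaments, had 3022 ± 250.2 in the 7-day-old arrays and 3575 ± 153 in the 3-day-old arrays (SD, n = 4 each), with no overlap and a log2 difference of -0.25 (limma adjusted p = 0.125).

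SOX9 was dim, between the 30.7th and 46.2nd percentile of the arrays, and its groups overlapped. It had 135, 94.0, 114 and 55.5 in the 7-day-old arrays and 145, 111, 105 and 116 in the 3-day-old arrays. Replicate 4 of the 7-day-old arrays was the lowest of the 8 and the other 3 of its label lay within or just under the range of the 3-day-old arrays. The log2 difference was -0.32 (limma adjusted p = 0.495), and its 95% interval, -0.95 to 0.31, includes a decrease as large as that of KRT19 as well as none. Without 7-day-old replicate 4 the log2 difference was -0.06.

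Of 12 tested genes that act with or beside SOX9 in transcription and in Notch or Hippo signalling, 3 were lower in the 7-day-old arrays and none higher, where 7.15% of all genes were called lower and 5.03% higher at 1 probe set a gene. The median log2 difference of the 12 was -0.05. The 3 were CYR61, a secreted protein whose gene is a target of YAP and TEAD factors (-1.10, limma adjusted p = 0.0044), FGFR2, the receptor through which FGF10 maintains pancreatic progenitors in mice (-0.86, adjusted p = 0.0085), and RBPJ, the DNA-binding partner of Notch (-0.37, adjusted p = 0.0346). CYR61 and FGFR2 passed without any single array, while RBPJ passed only without 7-day-old replicate 4. The other 2 probe sets of RBPJ did not pass (-0.28 and -0.35, limma adjusted p = 0.234 and 0.133). HES1, a Notch target that keeps progenitors undifferentiated, had a log2 difference close to 0 (95% interval -0.28 to 0.27). PDX1 and NKX6-1, which later serve beta cells, were above 0 without passing, at 0.53 (adjusted p = 0.133) and 0.85 (adjusted p = 0.052).

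CFTR, the apical anion channel of duct cells, had intensities of 154, 299.8, 213 and 261 in the 7-day-old arrays and 317, 347, 446 and 333 in the 3-day-old arrays. The groups did not overlap, although 7-day-old replicate 2 lay just under the lowest of the 3-day-old arrays. The log2 difference was -0.67 (95% interval -1.18 to -0.15), and it did not pass limma's test (adjusted p = 0.0977). It passed when variances followed a trend on intensity and were estimated robustly (0.0368), and with a stricter filter (50th percentile in 4 arrays), which tests fewer probe sets (0.0344).

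AQP1 had the largest difference of the duct probe sets, on probe set 1. It had 164, 123, 135 and 125 in the 7-day-old arrays, against 368, 189.6, 485 and 407 in the 3-day-old arrays. The groups did not overlap, and 3-day-old replicate 2 lay far below the other 3 of its label. The mean was 137 ± 19.0 in the 7-day-old arrays and 362 ± 125 in the 3-day-old arrays (SD, n = 4 each), with a log2 difference of -1.33 (SE 0.284, limma adjusted p = 0.0282), or 0.397 times the level in the 3-day-old arrays. The call held without 3-day-old replicate 2 (adjusted p = 0.014), was lost without any other array (0.0563 to 0.0765) and was lost with the methods' t-test (0.0515). Probe set 2 of AQP1 was dim and its groups overlapped, with 18.2 to 60.1 in the 7-day-old arrays and 35.6 to 73.6 in the 3-day-old arrays (log2 difference -0.51, 95% interval -1.49 to 0.47, adjusted p = 0.48).

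AQP1 is also made by capillary endothelium, whose markers differed in the same direction. Of 12 tested endothelial markers 6 were lower in the 7-day-old arrays and none higher, with a median log2 difference of -1.02, beside 7.15% of all genes lower and 5.03% higher. Their summed intensity was 909 to 1091 in the 7-day-old arrays and 2099 to 2639 in the 3-day-old arrays. Thrombomodulin (THBD) had a log2 difference of -2.18 (limma adjusted p = 0.00739) and PECAM1, an adhesion molecule of endothelial cells, -1.70 (adjusted p = 0.00331). Both passed without any single array. THBD, PECAM1 and CDH5, which defines endothelial junctions, reached the 20th percentile in all 8 arrays, as did CLDN5 and CD34, also called lower. The endothelial receptor kinase TIE1 had the largest difference (-3.41, adjusted p = 0.0061) but reached the 20th percentile in the 3-day-old arrays only. It had 2.74 to 9.67 in the 7-day-old arrays. TIE1 thus entered the test only through the label in which it was higher, and its difference is not read as support. The count of 6, the median and the summed intensity given above include TIE1. The part of endothelial cells in the AQP1 difference was not tested. The count of lower endothelial markers was 3 without 7-day-old replicate 2.

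The other genes of duct fluid and bicarbonate secretion were mostly not called. Of 18 tested, 1 was lower in the 7-day-old arrays and none was higher, a share near that of all genes (7.15% lower and 5.03% higher), with a median log2 difference of -0.09 and values on both sides of 0. The lower one was KCNQ1, a basolateral potassium channel (182 ± 29.9 in the 7-day-old arrays and 299.6 ± 30.9 in the 3-day-old arrays, SD, n = 4 each). Its log2 difference was -0.72 (limma adjusted p = 0.0198), and it did not pass without replicate 1 or 2 of the 7-day-old arrays or replicate 2 of the 3-day-old arrays (up to 0.0567). Its other 2 probe sets did not pass, and one of them had the opposite sign. SLC4A4, the basolateral sodium bicarbonate cotransporter that loads duct cells, had 174 ± 40.0 in the 7-day-old arrays and 284 ± 64.2 in the 3-day-old arrays, a log2 difference of -0.71 that did not pass (adjusted p = 0.073). The scaffold protein SLC9A3R1, which binds CFTR, had -0.37 (adjusted p = 0.103). ATP1B1, a subunit of the sodium pump, had 0.19 (adjusted p = 0.232). The water channels AQP3, AQP5 and AQP8 did not pass either, and neither did the carbonic anhydrases CA3, CA9 and CA12.

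Osteopontin (SPP1), a secreted glycoprotein that duct cells make, was among the brightest signals, above 99.6% of all probe sets in every array. It had 19875, 21290.1, 23538 and 20084 in the 7-day-old arrays and 22678, 21604, 25234 and 24733 in the 3-day-old arrays. The groups overlapped through 7-day-old replicate 3 and 3-day-old replicates 1 and 2. The log2 difference was -0.15 (95% interval -0.38 to 0.07, limma adjusted p = 0.346), an interval that lies wholly above the estimate for KRT19. Whether the probe set still responds in proportion at such intensities was not tested.

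Osteopontin binds integrins and CD44 and is cut by proteases. The 9 genes tested in this list were integrin chains, the proteases MMP3 and MMP7, and bone sialoprotein (IBSP), itself neither receptor nor protease. IBSP reached the 20th percentile in 2 arrays, and CD44 was not tested. Of the 9, 3 were lower in the 7-day-old arrays and none higher, with a median log2 difference of -0.49, beside 7.15% of all genes lower and 5.03% higher. They were ITGB3, the beta chain of an osteopontin receptor (126 ± 23.7 in the 7-day-old arrays and 377 ± 89.1 in the 3-day-old arrays, SD, n = 4 each, log2 difference -1.57, limma adjusted p = 0.00623), the integrin chain ITGA5 (-0.78, adjusted p = 0.0061) and the protease MMP3 (-3.19, adjusted p = 0.0243). A second probe set of ITGA5 did not pass (-0.53, limma adjusted p = 0.161). MMP3 did not pass without replicate 2 of the 7-day-old arrays or replicate 1, 2 or 3 of the 3-day-old arrays (up to 0.0675). The other 3 probe sets of MMP3 passed with all arrays in the fit (limma adjusted p = 0.00896 to 0.0258). The integrin chain ITGB1 had a log2 difference of 0.03 (95% interval -0.14 to 0.21). The study itself tabulates MMP3 and ITGB3 on these samples. It also tabulates THBD, PECAM1 and CDH5 named above and CPB1, NEUROD1, PCSK2, DCN and MMP2 named below. The presence of these genes here is not independent of its results. Macrophages also make osteopontin. Of 13 tested macrophage markers 12 had a negative log2 difference, as had 50.1% of all probe sets tested. Of the 13, 1, TYROBP, was called lower (not so without replicate 1, 2 or 3 of either label), beside 7.15% of all genes. Their summed intensity was 1184 to 2255 in the 7-day-old arrays and 2189 to 5705 in the 3-day-old arrays. The leukocyte antigen PTPRC and the marker CD86 each reached the 20th percentile in 1 array, a 3-day-old one. Both thus entered the test only through the label in which they were higher. They are among the 12, and their sign is not read as support. The part of macrophages in the SPP1 values was not tested.

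MUC1, a mucin of the apical membrane of duct cells, was read by 2 probe sets. Probe set 1 had 202, 201, 227 and 166 in the 7-day-old arrays and 239.9, 327, 341 and 311 in the 3-day-old arrays, with no overlap but a narrow gap below 3-day-old replicate 1. The log2 difference was -0.61 (SE 0.147, limma adjusted p = 0.0401), or 0.656 times the level in the 3-day-old arrays. The call held without replicate 3 of the 7-day-old arrays (0.0498) or replicate 1 of the 3-day-old arrays (0.0273) and was lost without any other array (0.0807 to 0.1). It was also lost without the filter on low values (0.0508) and with the methods' t-test (0.0561). Probe set 2 was near background, with 15.0 to 90.8 in the 7-day-old arrays and 39.1 to 92.3 in the 3-day-old arrays, and its log2 difference of -0.68 had a 95% interval of -1.93 to 0.57 (adjusted p = 0.463). Of 3 other genes tested for mucins or for their O-glycosylation, MUC4 was lower (log2 difference -0.74, limma adjusted p = 0.0445), a call that held only without 3-day-old replicate 4, and GALNT7 and C1GALT1C1 did not pass.

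**Figure D3:**
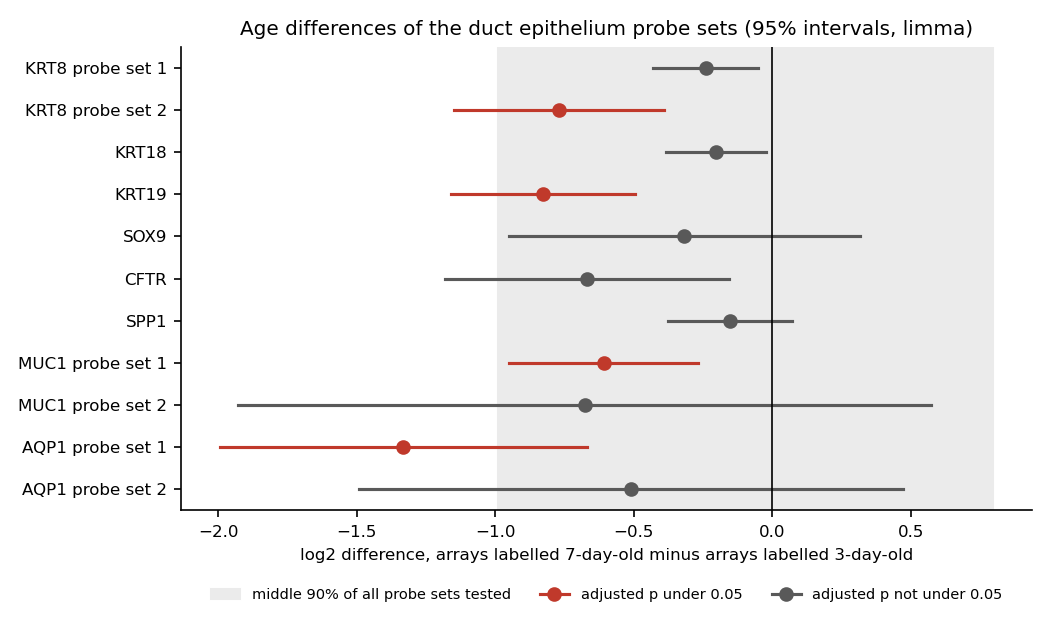
Log2 difference (horizontal axis, 7-day-old minus 3-day-old) of each duct probe set with its 95% interval from limma. Red points passed the adjusted threshold of 0.05, and the grey band spans the 5th to the 95th percentile of all probe sets tested (-0.99 to 0.80). All 11 points lie below 0, and AQP1 probe set 1 alone lies outside the band.

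The duct probe sets did not rank the arrays of one label alike. Replicate 4 of the 7-day-old arrays was the highest of its label for both KRT8 probe sets and KRT19 and the lowest of all 8 arrays for SOX9 and both MUC1 probe sets. Replicate 1 of the 7-day-old arrays was the lowest of all 8 for CFTR, SPP1, KRT8 probe set 1 and AQP1 probe set 2, and the highest of its label for SOX9 and AQP1 probe set 1. Among the 3-day-old arrays, replicate 2 was the lowest of its label for KRT18, KRT19, SPP1 and AQP1 probe set 1. Thus no single array was low throughout.

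The genes whose pattern over the 8 arrays was most like that of KRT19 were PMEPA1, ST6GAL1 and ID1. Likeness was the root mean square difference of log2 values, each gene centred on its own mean, among 5680 probe sets with 1 symbol and a mean log2 intensity above the median, and it was 0.0998, 0.105 and 0.119. The measure includes the shift between the labels. All 3 were lower in the 7-day-old arrays, with log2 differences of -0.89 for PMEPA1, -0.98 for ST6GAL1 and -0.99 for ID1. For SOX9 the most similar were CKAP4 (0.143), RND3 (0.154) and SMTN (0.195), none of which passed the test.

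Beyond the 8 genes, 16 of 29 other duct and progenitor markers were tested. Of these, 4 were lower in the 7-day-old arrays and none higher, beside 7.15% of all genes lower and 5.03% higher. Their median log2 difference was -0.23, and 13 of 16 were below 0, as were 50.1% of all probe sets tested. EHF and ELF3 are epithelial transcription factors of the ETS family. EHF had 299 ± 38.6 in the 7-day-old arrays and 651 ± 99.2 in the 3-day-old arrays (SD, n = 4 each), a log2 difference of -1.12 (limma adjusted p = 0.00709), and ELF3 had 717 ± 29.5 in the 7-day-old arrays and 1043 ± 60.7 in the 3-day-old arrays, a log2 difference of -0.54 (adjusted p = 0.00975). Both passed without any single array, but the second probe set of each did not pass (-0.32 for EHF and -0.30 for ELF3). E-cadherin (CDH1), which joins epithelial cells, was lower at -0.54 (adjusted p = 0.02), as was the membrane protease ST14 at -0.41 (adjusted p = 0.0475), a call lost without any 1 of the 8 arrays. CDH1 did not pass without replicate 1 or 2 of the 7-day-old arrays or replicate 2 or 3 of the 3-day-old arrays (up to 0.0603), and the count of 4 fell to 2 without any 1 of these arrays. A second probe set of CDH1 passed with all arrays in the fit (-0.87, limma adjusted p = 0.0168).

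The other epithelial markers in the list did not pass. EPCAM, a surface antigen of epithelial cells, had 14365 ± 686 in the 7-day-old arrays and 14948 ± 768 in the 3-day-old arrays, a log2 difference of -0.06 (95% interval -0.24 to 0.13). The duct annexin ANXA4 had -0.07 (95% interval -0.27 to 0.13) and the secreted chaperone clusterin (CLU) 0.03 (95% interval -0.20 to 0.27). The tight junction protein CLDN4 had 2698 ± 613 in the 7-day-old arrays and 4013 ± 295 in the 3-day-old arrays, with no overlap, and did not pass (log2 difference -0.60, adjusted p = 0.063). The protease MMP7 had -0.25 (adjusted p = 0.143). The progenitor marker PROM1 reached the 20th percentile in 4 arrays.

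**Figure D4:**
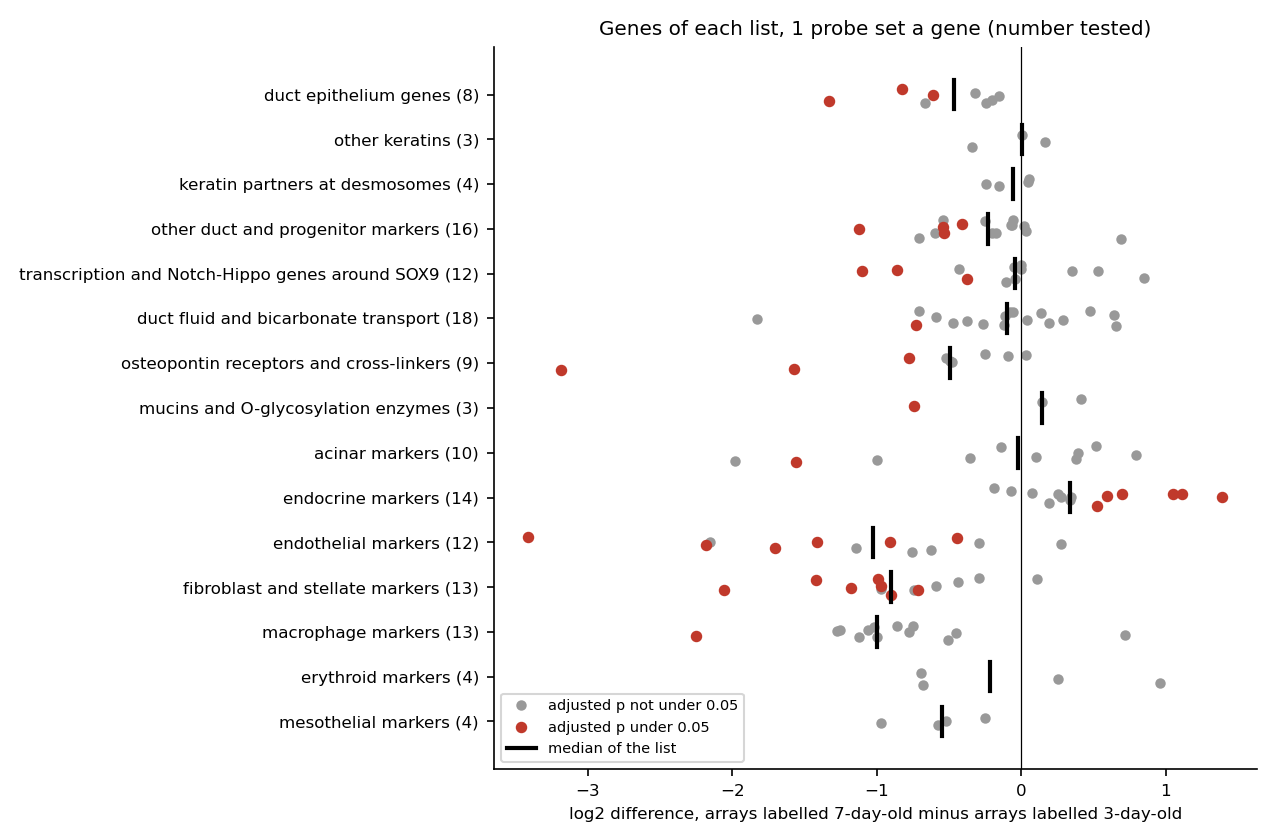
Log2 difference (horizontal axis, 7-day-old minus 3-day-old) of every tested gene of each list, 1 probe set a gene, with red points for an adjusted p under 0.05, grey points for the rest and a black bar at the median of the list. The duct genes lie below 0 with a median of -0.46, and the endothelial and fibroblast lists have medians of -1.02 and -0.90. The endothelial list includes TIE1, which entered the test only through the 3-day-old arrays.

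Markers of other cell types went different ways. Of 10 tested acinar markers 1, the carboxypeptidase CPB1, was lower in the 7-day-old arrays and none higher, beside 7.15% of all genes lower and 5.03% higher. The acinar markers had a median log2 difference of -0.02 and a summed intensity of 31434 to 52713 in the 7-day-old arrays and 42588 to 54278 in the 3-day-old arrays. Of 14 endocrine markers 6 were higher in the 7-day-old arrays and none lower (median 0.34), beside 5.03% and 7.15% of all genes, with a summed intensity of 173728 to 212465 in the 7-day-old arrays and 148890.0 to 185256 in the 3-day-old arrays. The largest differences were those of the transcription factor NEUROD1 (1.39, limma adjusted p = 0.00407), the prohormone convertase PCSK2 (1.11, adjusted p = 0.00775) and the granin SCG3 (1.05, adjusted p = 0.00622). A second probe set of NEUROD1 had -0.19 and did not pass. The hormones themselves did not pass, with log2 differences of -0.07 for INS, -0.19 for GCG, 0.08 for SST and 0.19 for PPY (limma adjusted p = 0.466 to 0.795). Without 1 array the count of 6 fell to 4, for replicate 1 or 2 of the 7-day-old arrays or replicate 1 or 3 of the 3-day-old arrays. Of 13 fibroblast and stellate markers 7 were lower and none higher, beside 7.15% of all genes lower and 5.03% higher. Their summed intensity was 38248 to 41837 in the 7-day-old arrays and 52364 to 64608 in the 3-day-old arrays, and 3 were lower without 3-day-old replicate 3. The largest of these differences were those of the matrix proteoglycan decorin (DCN, -2.05, limma adjusted p = 0.0126), the gelatinase MMP2 (-1.42, adjusted p = 0.018) and the receptor PDGFRB (-1.17, adjusted p = 0.037), whose second probe set had 0.02 and did not pass. DCN passed without any single array, MMP2 did not without 3-day-old replicate 3, and PDGFRB passed only without 3-day-old replicate 1. Mesothelium also makes KRT8, KRT18 and KRT19. Its 4 tested markers had log2 differences below 0, as had 50.1% of all probe sets tested, and none passed. The part of these cell types in the duct values was not tested. At 1 probe set a gene the 8 duct genes themselves had a median log2 difference of -0.46, and their summed intensity was 37027 to 41860 in the 7-day-old arrays and 42437 to 47989 in the 3-day-old arrays.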

How the data were processed

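Islets of 4 pigs of each age were hybridised to pig Affymetrix GeneChips, with amplified and biotin-labelled RNA and an additional amplification where input was low, in samples that the sources used here do not name. The authors deposited linear intensities of 24123 probe sets, whose 2% trimmed mean is the same in every array. No source used here names the summarising software, and the median normalization of the methods is not in these values. Symbols came from the platform annotation. No genome or sequence table was used.

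Intensities were floored at 1 before taking log2. Probe sets that reached the 20th percentile in at least 1 array were tested (21574, without controls) by limma 3.58.1 in R 4.3.3, 7-day-old minus 3-day-old by deposited label, without covariates. The script was tested on simulated data. In lists, the brightest tested probe set stood for a gene, and lists are described by counts and medians. Every duct probe set is named, with up to 3 called genes of each list by largest difference (2 by smallest p where none passed) and the 3 genes most like KRT19 and SOX9, and other members named beside them were chosen after their values were seen. The members and lists were chosen with earlier results of these data known. Alternatives were no filter, a stricter filter (50th percentile in 4 arrays), the methods' t-test, an intensity trend with robust variances, median centring, quantile normalization, array weights, an offset of 16, the replicate number as a block, and each array left out (for counts over the lists, chosen after seeing the data). Python 3.11.15 with scipy 1.17.1 served for exact tests, whose 7 pairs were chosen after the values were seen.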

Additional observations from a re-analysis of the deposited data

Results flagged for a closer look

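In 4 of 82 groups of 4 arrays, 1 array stood far from the other 3 on the log2 scale, and chance alone flags about 1 in 20 such groups. KRT8 probe set 2 had an intensity of 2787 in 7-day-old replicate 4, against 1815 to 1924 in the other 3 arrays of that label. KRT18 had 9774 in 3-day-old replicate 4, against 8618 to 8769.6 in the others. AQP1 probe set 2 had 18.2 in 7-day-old replicate 1, against 49.2 to 60.1 in the others. Among the genes named from the lists, the granin SCG3 had 1399 in 7-day-old replicate 3, against 1658 to 1691 in the others.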

How the results depend on the processing

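All 11 duct probe sets kept a negative log2 difference under every alternative that tested them (8 of the 11 passed the stricter filter). Of the probe sets called, 2305 over the whole array and 4 among the duct genes, an intensity trend with robust variances gave 3491 and 7, and leaving out 1 array gave 1008 to 1854 and 1 to 2. The 7 added KRT18, KRT8 probe set 1 and CFTR. The median duct difference, -0.61, was -0.46 with an offset of 16, which shrinks dim probe sets, and -0.70 to -0.49 with 1 array left out. The pigs of the 2 ages are different animals, and residuals of arrays with the same replicate number correlated at -0.0135 to 0.00487, so the numbers do not pair the arrays. With the replicate block 0 probe sets passed limma's test over the whole array and 0 among the duct genes, with 5264 and 6 at an unadjusted p under 0.05. The methods' t-test without a block called 2125 and 4, but not the same 4. It called KRT19, both KRT8 probe sets and KRT18, and lost MUC1 probe set 1 and AQP1 probe set 1. With the mean of a gene's probe sets in place of the brightest, 6 instead of 4 other duct and progenitor markers, 2 instead of 1 acinar markers and 7 instead of 6 endothelial markers were lower, 1 gene was higher in each of the SOX9 and mucin lists, where none had been, and 5 instead of 6 endocrine markers were higher. The widest intervals were those of the dim probe sets 2 of MUC1 and AQP1.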
